A study of Saccharomyces pastorianus with 12 samples.

Results

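The genes described here encode subunits of the mitochondrial protein import machinery, the TOM complex of the outer membrane and the TIM proteins of the intermembrane space and inner membrane. They were taken as every row of the count tables whose identifier is TIM or TOM followed by a number, with an optional copy number after it. TIM11 and TOM1 were left out, since in Saccharomyces cerevisiae they encode a subunit of the ATP synthase and a ubiquitin ligase. This gave 35 gene copies of 18 gene symbols among 11312 copies in the tables. Of the 18 symbols, 17 had 2 copies, written _1 and _2, and TOM5 had 1 row. All 35 copies had readable counts in every library and passed the filter on low counts.

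Most mitochondrial proteins are made in the cytosol and cross the outer membrane through the TOM complex, where receptors bind their targeting signals and hand them to a channel. Small TIM chaperones guide hydrophobic proteins through the intermembrane space, the TIM22 complex inserts carrier proteins into the inner membrane, and the TIM23 complex takes up proteins with a presequence. Yeast needs this route even when it ferments, because mitochondria also house steps such as iron-sulfur cluster assembly. The roles given below are those known from Saccharomyces cerevisiae.

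Messenger RNA was sequenced from SpIB2 and SpIB1, a pair of strains of Saccharomyces pastorianus, the hybrid yeast of lager brewing, in a study of their different use of maltose and maltotriose. Both were grown in brewing wort at 16 °C in fermentations of 5 days, with no other treatment named, and libraries came from polyA RNA with an integrity number above 8. The 4 groups were SpIB2 on day 5, SpIB2 on day 2, SpIB1 on day 5 and SpIB1 on day 2, with 3 libraries each. Whether the replicates of a group came from separate fermentations is not in the labels. Every p-value therefore speaks only of the spread among these libraries, which may be technical. The tables do not say which parent of the hybrid each copy comes from. Reads shared between the copies of a symbol make the value of a single copy uncertain, so sums over both copies were tested as well.

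Libraries held 5133175 to 7922547 reads over the readable copies. Values are CPM, read counts brought to a common library size with TMM factors, and 3 reads equal 0.306 to 1.03 CPM depending on the library. SpIB2 day 5 replicate 1 and SpIB2 day 2 replicate 3 stood apart from their replicates, at a Pearson r of 0.914 to 0.922 and of 0.897 to 0.906 across copies (log2 CPM). SpIB2 day 5 replicate 1 also had a TMM factor of 0.509, against 0.868 to 1.35 in the other 11 libraries. Scaling by library totals in place of TMM moved the median log2 fold change of all tested copies to -0.72 for SpIB2 over SpIB1 on day 5 (0.03 with TMM), to -0.54 for day 5 over day 2 in SpIB2 (-0.10 with TMM) and to 0.27 in SpIB1 (0 with TMM). In bulk RNA a lower share of cells with a transcript and less of it per cell cannot be told apart.

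In SpIB2 on day 5, 12 of the 35 TIM and TOM copies were higher than in SpIB1 and 6 were lower, at an edgeR adjusted p under 0.05. Of all 10659 copies tested, 29.9% were higher and 26.5% lower (56.4% in either direction), so the members' count lay near that of all copies. With library totals in place of TMM, 5 members were higher and 11 lower, against 14.1% and 45.6% of all copies. Of the calls kept then, the higher copies had log2 fold changes of 0.63 (TIM17_2), 1.04 (TIM54_2) and 1.25 (TIM9_2), with TIM22_2 and TIM23_1 at 0 reads in SpIB1. The lower ones had -1.38 (TIM21_2), -1.46 (TIM22_1), -1.99 (TIM50_1 and TOM70_2), -1.44 (TOM40_1) and -1.56 (TOM71_1). The median log2 fold change was 0.42 over the members and 0.03 over all copies. On day 2, 9 members were higher in SpIB2 and 4 lower, against 19.3% and 16.0% of all copies (35.3% in either direction), with medians of 0.28 for the members and 0.04 for all copies. Library totals gave 7 higher and 4 lower on day 2, against 13.6% and 15.4% of all copies. Over both days, 5 copies were higher in SpIB2 on each day, 2 were lower on each day, and 0 changed sides among the called ones. The 5 include TIM22_2 and TIM23_1, which had 0 reads in SpIB1 and passed the filter only through SpIB2. Their higher calls, counted above on both days, follow from those 0 reads. A further 11 copies were called on day 5 only, 6 on day 2 only and 11 on neither day, and being called on 1 day only does not show that the days differ. These overlaps were counted for the members only, so they have no share of all copies to stand against. Without the pair of libraries that stood apart, 15 members were higher and 5 lower on day 5, and 11 were higher and 6 lower on day 2. The medians were then 0.57 over the members and -0.0046 over all copies on day 5, and 0.18 and 0.03 on day 2. Shares of all copies called without that pair are not given here, so these counts describe the members only.

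**Figure D1:**
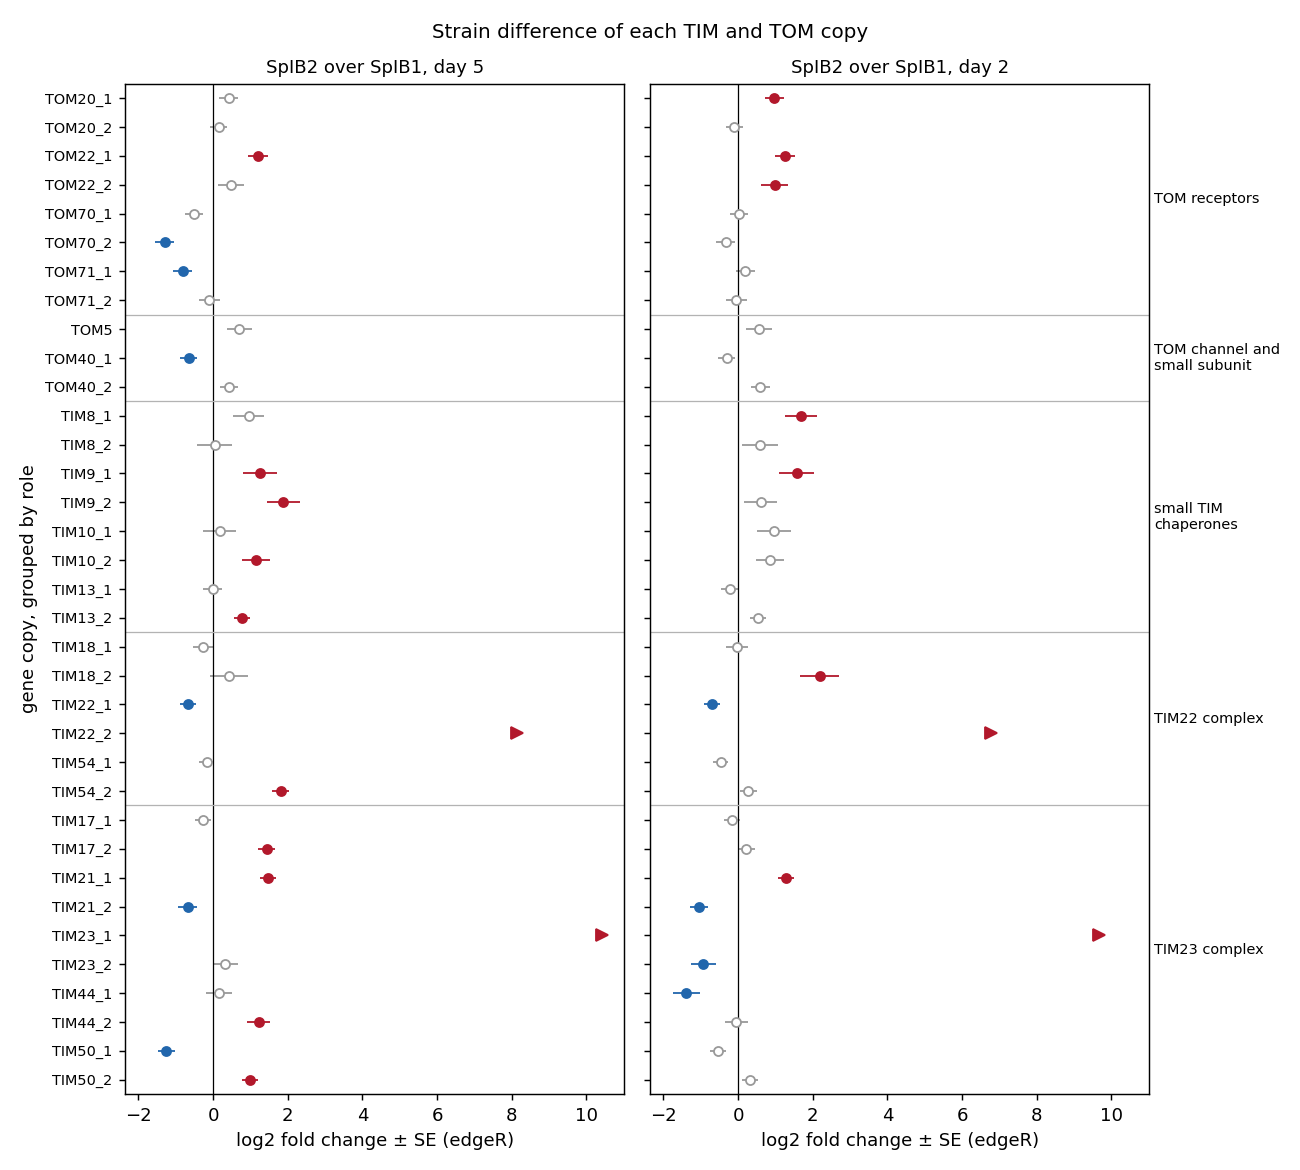
Strain difference of the 35 TIM and TOM copies, grouped by role, on day 5 (left) and day 2 (right). The horizontal axis is the log2 fold change of SpIB2 over SpIB1 with an SE derived from the edgeR F statistic. Filled red points were higher in SpIB2 and filled blue points lower at an adjusted p under 0.05, open grey points were not called, and red arrowheads are lower bounds for TIM22_2 and TIM23_1, which had 0 reads in SpIB1. The 12 red and 6 blue marks on day 5 stand against 9 and 4 on day 2.

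Between the days, 12 members were higher on day 5 than on day 2 in SpIB2 and 2 were lower, against 21.8% and 23.5% of all copies (45.3% in either direction). The median log2 fold change was 0.21 over the members and -0.10 over all copies. With library totals 6 members were higher and 5 lower, with medians of -0.15 over the members and -0.54 over all copies. The kept calls included log2 fold changes of 0.75 (TIM17_2), 0.82 (TIM23_2), 0.88 (TIM44_1), 0.78 (TIM44_2) and -1.06 (TOM70_2). In SpIB1, 0 members were higher on day 5 and 1 was lower, against 0.863% and 2.61% of all copies (3.47% in either direction), with medians of 0.24 and 0. The difference between the day effects of the strains was called for 4 members, all with a larger day 5 over day 2 change in SpIB2, against 14.6% of all copies in that direction and 11.9% in the other (26.4% in either). With library totals these counts were 0 and 6, with median differences of -0.72 over the members and -0.78 over all copies. The shares of all copies called between the days under library totals are not given here. The library-total counts of this paragraph therefore do not set the members apart from all copies. Without the pair of libraries that stood apart, the day comparison called 12 higher and 0 lower members in SpIB2, and 5 higher and 1 lower in SpIB1. The medians were then 0.44 over the members and -0.10 over all copies in SpIB2, and 0.26 and 0.01 in SpIB1. Without SpIB2 day 2 replicate 3 alone it called 9 higher and 0 lower in SpIB2. In SpIB1, 0 were called without SpIB1 day 2 replicate 1 or 3 or any 1 SpIB1 day 5 library, and 2 without SpIB2 day 5 replicate 1. The difference of day effects was called for 1 or 2 members without any 1 of the 6 SpIB1 libraries. For the fits with libraries left out, shares of all copies called are not given here. The comparisons share libraries, so their counts are not independent of each other.

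**Figure D2:**
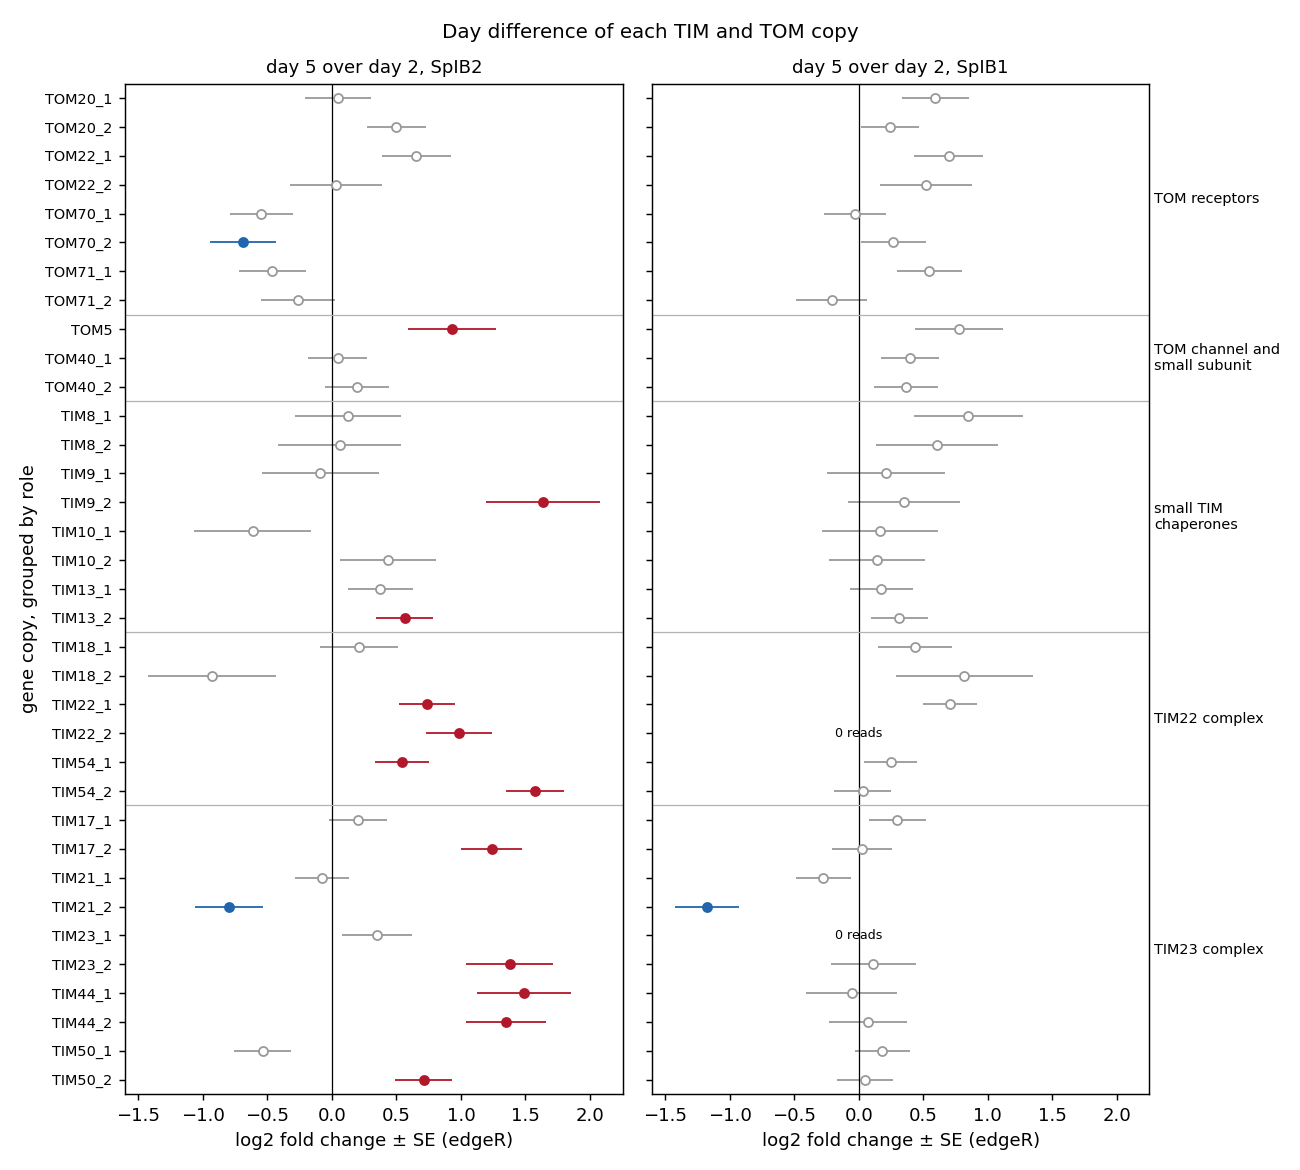
Difference of day 5 over day 2 for the 35 TIM and TOM copies, grouped by role, in SpIB2 (left) and SpIB1 (right). The horizontal axis is the log2 fold change with an SE derived from the edgeR F statistic. Filled red points were higher and filled blue points lower on day 5 (edgeR adjusted p under 0.05), and open grey points were not called. SpIB2 shows 12 red and 2 blue points, SpIB1 shows 1 blue point, and TIM22_2 and TIM23_1 are marked as having 0 reads in SpIB1.

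Summing the reads of both copies left fewer differences between the strains. On day 5, 3 of 18 symbols (TIM54, TIM9 and TOM22) were higher in SpIB2 and 2 (TOM70 and TOM71) lower, against 28.3% and 26.7% of the 6171 symbols tested (55.0% in either direction). With library totals 0 were higher and 4 lower, and TIM54 then changed direction (log2 fold change -0.079). The share of all symbols called under library totals is not given here, and all copies then had a median log2 fold change of -0.72. The day 5 sums of TIM10, TIM13, TIM17 and TIM44, each with a called copy, were not called (edgeR adjusted p = 0.239, 0.431, 0.0692 and 0.183). On day 2, 1 symbol (TOM22) was higher and 0 were lower, against 14.9% and 13.0% of all symbols (28.0% in either direction). The day 2 sums of TIM8, TIM9, TIM18, TIM44 and TOM20, each with a called copy, were likewise not called (edgeR adjusted p = 0.0578, 0.0916, 0.223, 0.0562 and 0.294). Between the days, 6 symbols (TIM17, TIM22, TIM23, TIM44, TIM54 and TOM5) were higher on day 5 in SpIB2 and 1 (TOM70) was lower, against 22.2% and 24.4% (46.6% in either direction). Library totals gave 2 higher and 2 lower there, again with no share of all symbols to stand against. The sums of TIM9, TIM13, TIM21 and TIM50, each with a called copy in that comparison, were not called (edgeR adjusted p = 0.119, 0.145, 0.144 and 0.435). In SpIB1, 0 symbols were higher on day 5 and 1 (TIM21) was lower, against 0.891% and 2.98% (3.87% in either direction). These counts of symbols depended on single libraries. On day 5, 9 symbols were called without SpIB2 day 5 replicate 1, 2 without SpIB1 day 5 replicate 1, and 3 without SpIB1 day 5 replicate 3, SpIB2 day 5 replicate 2 or SpIB2 day 5 replicate 3. On day 2, 0 were called without SpIB2 day 2 replicate 1 or SpIB1 day 2 replicate 1 or 2, and 2 to 5 without SpIB2 day 2 replicate 2 or any 1 SpIB2 day 5 library. In SpIB1, 0 were called between the days without any 1 SpIB1 library and 3 without SpIB2 day 5 replicate 1. Without the pair of libraries that stood apart, 7 symbols were higher and 2 lower in SpIB2 on day 5, 3 and 1 on day 2, and in the day comparison 7 and 0 in SpIB2 and 2 and 1 in SpIB1. Shares of all symbols called with libraries left out are not given here, so these counts describe the members only.

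The largest strain differences lay between the copies of a symbol. TIM23_1, a copy of the channel subunit of the TIM23 complex, had 493, 546 and 751 reads in SpIB2 on day 5 and 555, 624 and 955 on day 2, against 0 reads in all 6 SpIB1 libraries. TIM22_2, a copy of the channel of the TIM22 complex, had 97, 111 and 165 reads in SpIB2 on day 5 and 78, 102 and 100 on day 2, and likewise 0 in all 6 SpIB1 libraries. Neither copy's libraries overlapped between the strains. Set against a floor of 3 reads over the 3 libraries of a group, TIM23_1 was at least 1361-fold higher in SpIB2 on day 5 and at least 819-fold higher on day 2, and TIM22_2 at least 282-fold and at least 109-fold higher. The 0 of 22844 SpIB1 reads on TIM23 that fell on TIM23_1 allow a share of up to 0.0131%, and the 0 of 1984 on TIM22 that fell on TIM22_2 allow up to 0.151%. These limits cover counting error only. A copy with 0 reads in SpIB1 was not particular to the import genes: 174 of the 10659 tested copies (1.63%) had 0 reads in all 6 SpIB1 libraries, while 0 copies had 0 reads in all 6 SpIB2 libraries. Among 3910 symbols with 2 tested copies, 135 (3.45%) had 1 copy at 0 in SpIB1, as had 2 of the 17 import symbols. The tables cannot tell an absent gene copy from one whose reads were assigned elsewhere or that was not transcribed.

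In both symbols the remaining copy carried all the reads of SpIB1. TIM22_1 had 37.4, 26.2 and 30.8 CPM in SpIB2 on day 5 and 16.6, 20.9 and 18.9 CPM on day 2. In SpIB1 it had 55.6, 42.1 and 52.3 CPM on day 5 and 28.7, 31.8 and 31.4 CPM on day 2. The strains did not overlap on either day, and TIM22_1 was lower in SpIB2 on day 5 (log2 fold change of -0.67, SE 0.21, edgeR adjusted p = 0.0149) and on day 2 (log2 fold change of -0.70, SE 0.21, edgeR adjusted p = 0.0205). The day 5 call was lost without SpIB2 day 5 replicate 2 (edgeR adjusted p = 0.0570), and the day 2 call without SpIB2 day 2 replicate 1 or SpIB1 day 2 replicate 2 or 3 (edgeR adjusted p = 0.0503 to 0.0780). Summed over both copies, TIM22 had 60.8 ± 9.15 CPM in SpIB2 and 51.1 ± 7.34 CPM in SpIB1 on day 5, and 35.3 ± 4.12 CPM in SpIB2 and 31.2 ± 1.70 CPM in SpIB1 on day 2 (SD, n = 3 each), and was not called on either day (edgeR adjusted p = 0.282 and 0.511).

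TIM23_2 had 909, 512 and 445 CPM in SpIB2 on day 5 and 245, 259.9 and 213 CPM on day 2. The SpIB1 libraries had 522, 415 and 546 CPM on day 5 and 413, 452 and 506 CPM on day 2. The strains did not overlap on day 2 and did on day 5, where replicate 1 of SpIB2 was the highest of all libraries. TIM23_2 was lower in SpIB2 on day 2 (log2 fold change of -0.93, SE 0.33, edgeR adjusted p = 0.0416) and was not called on day 5 (edgeR adjusted p = 0.408). The day 2 call was lost without any 1 of the 6 day 2 libraries (edgeR adjusted p = 0.0699 to 0.0975) and with median-ratio size factors (edgeR adjusted p = 0.0507). Summed TIM23 had 747 ± 229.9 CPM in SpIB2 and 504 ± 72.2 CPM in SpIB1 on day 5, and 365 ± 12.6 CPM in SpIB2 and 464 ± 46.0 CPM in SpIB1 on day 2 (SD, n = 3 each), and was not called between the strains (edgeR adjusted p = 0.103 and 0.375).

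The balance between copies was tested for each symbol with edgeR by asking whether the copies of a symbol had the same fold change between the strains. On day 5, 8 of 17 import symbols differed in balance, against 46.3% of the 4147 symbols tested, and on day 2, 9 of 17, against 31.4%. These counts include TIM22 and TIM23 on both days. A copy of each had 0 reads in SpIB1 and passed the filter only through SpIB2, so their balance calls follow from those 0 reads. TIM21, TIM22, TIM23, TIM50, TIM54 and TOM40 were called on both days, TIM13 and TIM17 on day 5 only, and TIM18, TIM44 and TOM20 on day 2 only. In TIM21, TIM22, TIM23 and TIM50 single copies were called in opposite directions on at least 1 day. Of the day 2 calls, those of TIM44, TIM50, TIM54, TOM20 and TOM40 were each lost when 1 library was left out, with the highest edgeR adjusted p at 0.113, 0.106, 0.181, 0.0841 and 0.105. The libraries were all 3 of SpIB1 day 2 for TIM44, TIM50 and TOM40, SpIB1 day 2 replicates 1 and 3 for TIM54 and TOM20, and further ones of SpIB2 day 2 in each case and of SpIB1 day 5 for TIM50 and TIM54. Leaving out SpIB1 day 2 replicate 1 or 3 left 4 symbols called on day 2, and leaving out SpIB2 day 2 replicate 1 or 2 left 5. On day 5 the TIM13 call was lost when 1 library was left out, for SpIB2 day 5 replicates 1 and 2, SpIB1 day 5 replicates 1 and 3 and SpIB1 day 2 replicates 1 and 2 (edgeR adjusted p = 0.0507 to 0.161).

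**Figure D3:**
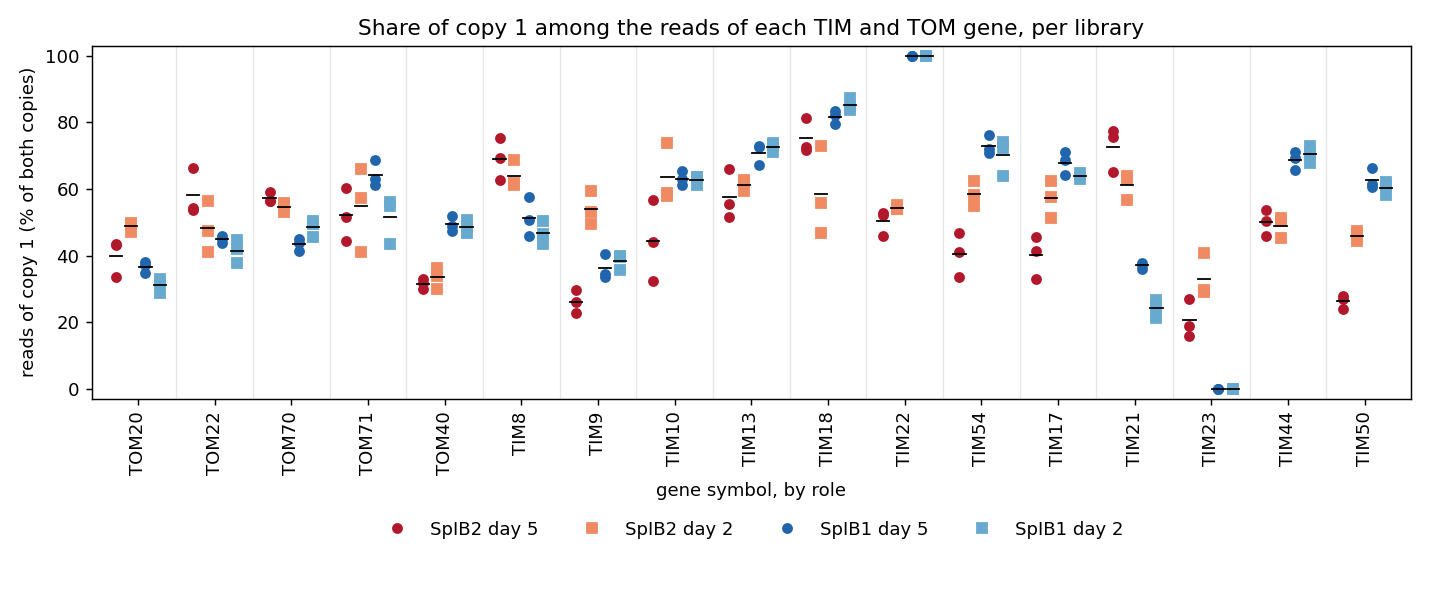
Share of copy 1 among the reads of each TIM and TOM symbol with 2 copies, in percent, for every library. Symbols run along the horizontal axis by role, point colours and shapes mark the 4 groups, and black bars are group means of 3 libraries. TIM22 stands at 100% and TIM23 at 0% in all 6 SpIB1 libraries. TIM21, TIM50 and TOM40 show SpIB2 and SpIB1 apart on both days, as do TIM8, TIM9, TIM13, TIM17, TIM44, TIM54 and TOM70.

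TIM21, the TIM23 complex subunit that contacts the TOM complex, had its copies going opposite ways on both days. TIM21_1 had 28.2, 31.0 and 41.8 CPM in SpIB2 on day 5 and 38.4, 34.2 and 34.0 CPM on day 2. In the SpIB1 libraries the values were 11.4, 13.7 and 11.3 CPM on day 5 and 14.9, 15.2 and 14.0 CPM on day 2. Every SpIB2 library was above every SpIB1 library, and TIM21_1 was higher in SpIB2 on day 5 (log2 fold change of 1.47, SE 0.21, edgeR adjusted p = 7.27e-05) and on day 2 (log2 fold change of 1.27, SE 0.21, edgeR adjusted p = 0.000504). With library totals the day 5 log2 fold change was 0.75 (edgeR adjusted p = 0.0527). TIM21_2 had 8.24, 16.7 and 13.4 CPM in SpIB2 on day 5 and 21.7, 20.1 and 25.8 CPM on day 2. SpIB1 had 19.2, 24.4 and 18.6 CPM on day 5 and 55.3, 42.0 and 43.0 CPM on day 2. Here every SpIB2 library was below every SpIB1 library of the same day, and TIM21_2 was lower in SpIB2 on day 5 (log2 fold change of -0.68, SE 0.26, edgeR adjusted p = 0.0385) and on day 2 (log2 fold change of -1.05, SE 0.25, edgeR adjusted p = 0.00565). The day 5 call was lost without SpIB2 day 5 replicate 1 or 3, SpIB1 day 5 replicate 1 or 2, or SpIB1 day 2 replicate 2 (edgeR adjusted p = 0.0504 to 0.118). TIM21_1 made up 72.7% ± 6.71 of TIM21 reads in SpIB2 and 37.0% ± 0.958 in SpIB1 on day 5, and 61.3% ± 3.89 in SpIB2 and 24.1% ± 2.69 in SpIB1 on day 2 (SD, n = 3 each). The copy balance differed on day 5 (edgeR adjusted p = 1.01e-05) and on day 2 (edgeR adjusted p = 3.00e-06), and summed TIM21 was not called on either day (edgeR adjusted p = 0.0876 and 0.801).

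TIM21_2 was also the only member called between the days in SpIB1, where it was lower on day 5 (log2 fold change of -1.17, SE 0.25, edgeR adjusted p = 0.0194), and it was lower on day 5 in SpIB2 as well (log2 fold change of -0.80, SE 0.26, edgeR adjusted p = 0.0243). In neither strain did its libraries overlap between the days. The SpIB1 call was lost without SpIB1 day 2 replicate 1 or 3 or any 1 of the SpIB1 day 5 libraries (edgeR adjusted p = 0.0597 to 0.126), and with library totals (-0.89, edgeR adjusted p = 0.177). The SpIB2 call was lost without SpIB2 day 2 replicate 3 or SpIB2 day 5 replicate 1 (edgeR adjusted p = 0.0654 to 0.0692). Summed TIM21 was lower on day 5 in SpIB1, at 33.5 ± 4.56 CPM on day 5 and 62.5 ± 7.71 CPM on day 2 (SD, n = 3 each; log2 fold change of -0.90, SE 0.21, edgeR adjusted p = 0.0301). That call was lost without any 1 of the 6 SpIB1 libraries (edgeR adjusted p = 0.0826 to 0.154), and with library totals (-0.62, edgeR adjusted p = 0.272).

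TIM50, the TIM23 complex receptor that takes presequences from the TOM complex, also had copies on opposite sides on day 5. TIM50_1 had 27.5, 27.5 and 34.6 CPM in SpIB2 and 72.5, 67.5 and 73.4 CPM in SpIB1 on day 5, and 34.5, 47.1 and 48.5 CPM in SpIB2 and 54.7, 68.1 and 65.1 CPM in SpIB1 on day 2. TIM50_2 had 87.2, 74.5 and 89.6 CPM in SpIB2 and 36.9, 43.8 and 45.9 CPM in SpIB1 on day 5, and 39.9, 52.4 and 60.9 CPM in SpIB2 and 39.1, 41.4 and 42.0 CPM in SpIB1 on day 2. On day 5 the strains did not overlap for either copy, with TIM50_1 lower in SpIB2 (log2 fold change of -1.25, SE 0.22, edgeR adjusted p = 0.000338) and TIM50_2 higher (log2 fold change of 0.99, SE 0.22, edgeR adjusted p = 0.00183). On day 2 neither copy was called (edgeR adjusted p = 0.0704 and 0.270). TIM50_1 took 26.3% ± 2.04 of TIM50 reads in SpIB2 and 62.8% ± 3.005 in SpIB1 on day 5, and 46.0% ± 1.56 in SpIB2 and 60.4% ± 1.95 in SpIB1 on day 2 (SD, n = 3 each; edgeR adjusted p of the balance 1.23e-06 on day 5 and 0.0282 on day 2). Summed TIM50 had 110.5 ± 10.1 CPM in SpIB2 and 116 ± 5.20 CPM in SpIB1 on day 5 (edgeR adjusted p = 0.797). With library totals TIM50_2 was no longer called on day 5 (log2 fold change 0.22, edgeR adjusted p = 0.467).

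The 8 copies of the TOM receptors gave 1 higher and 2 lower copies in SpIB2 on day 5, against 29.9% and 26.5% of all copies, and 3 higher and 0 lower on day 2, against 19.3% and 16.0%. With library totals 0 were higher and 4 lower on day 5, and 1 was higher and 0 lower on day 2. Such counts, here and for the roles below, stand against the library-total shares of all copies given above. TOM22, the central receptor that joins the other receptors to the channel, was the only symbol called higher on both days. TOM22_1 had 142, 150.4 and 170.4 CPM in SpIB2 on day 5 and 123, 90.8 and 80.2 CPM on day 2. In SpIB1 it had 54.1, 76.3 and 69.1 CPM on day 5 and 32.3, 40.0 and 50.8 CPM on day 2. The strains did not overlap on either day, and TOM22_1 was higher in SpIB2 on day 5 (log2 fold change of 1.21, SE 0.27, edgeR adjusted p = 0.00171) and day 2 (log2 fold change of 1.26, SE 0.27, edgeR adjusted p = 0.00308). The day 5 call was lost with library totals (log2 fold change 0.47, edgeR adjusted p = 0.204). TOM22_2 had 71.8, 129 and 143 CPM in SpIB2 on day 5 and 177, 69.8 and 89.4 CPM on day 2. The SpIB1 libraries had 63.7, 97.7 and 84.4 CPM on day 5 and 53.1, 55.3 and 62.9 CPM on day 2. It overlapped between the strains on day 5 and was higher in SpIB2 on day 2 (log2 fold change of 0.97, SE 0.36, edgeR adjusted p = 0.0478), where replicate 1 of SpIB2 was far above the other libraries.

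That TOM22_2 call was lost without SpIB2 day 2 replicate 1, SpIB2 day 5 replicate 2 or any 1 of the 6 SpIB1 libraries (edgeR adjusted p = 0.0555 to 0.297), and with library totals (edgeR adjusted p = 0.114). Summed TOM22 had 201, 279.8 and 307 CPM in SpIB2 and 121, 177 and 156 CPM in SpIB1 on day 5 (log2 fold change of 0.80, SE 0.29, edgeR adjusted p = 0.0323). On day 2 it had 306, 163 and 174 CPM in SpIB2 and 86.8, 97.2 and 115 CPM in SpIB1 (log2 fold change of 1.10, SE 0.29, edgeR adjusted p = 0.0144). The strains did not overlap in the sum on either day. The day 5 call of the sum was lost without SpIB2 day 5 replicate 2 or 3 or SpIB1 day 5 replicate 1 or 3 (edgeR adjusted p = 0.0716 to 0.139) and with library totals (0.14, edgeR adjusted p = 0.751), and the day 2 call without SpIB2 day 2 replicate 1 or SpIB1 day 2 replicate 1 or 2 (edgeR adjusted p = 0.0563 to 0.0791).

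TOM70, the receptor for carrier proteins and other precursors without a presequence, went the other way on day 5. TOM70_2 had 33.7, 60.0 and 53.1 CPM in SpIB2 on day 5 and 73.6, 77.7 and 86.2 CPM on day 2. In the SpIB1 libraries the values were 105, 129 and 128 CPM on day 5 and 90.2, 103 and 107 CPM on day 2. All SpIB2 libraries lay below all SpIB1 libraries, and the copy was lower in SpIB2 on day 5 (log2 fold change of -1.30, SE 0.26, edgeR adjusted p = 0.000812), a call kept in every alternative fit, and was not called on day 2 (edgeR adjusted p = 0.316). TOM70_1 had 48.4, 77.3 and 68.9 CPM in SpIB2 and 81.1, 91.2 and 104 CPM in SpIB1 on day 5, which did not overlap but was not called (edgeR adjusted p = 0.0911). Summed TOM70 was lower in SpIB2 on day 5, at 111 ± 31.0 CPM against 217 ± 24.0 CPM in SpIB1 (SD, n = 3 each; log2 fold change of -0.96, SE 0.24, edgeR adjusted p = 0.00466).

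Within SpIB2, TOM70_2 and summed TOM70 were lower on day 5 than on day 2 (log2 fold changes of -0.69 ± 0.26 and -0.67 ± 0.24 SE, edgeR adjusted p = 0.0410 and 0.0354). The TOM70_2 call was lost without any 1 library but SpIB2 day 5 replicate 2 (edgeR adjusted p = 0.0531 to 0.0864). The call of the sum was lost without SpIB2 day 5 replicate 1, any 1 of the 6 day 2 libraries, or SpIB1 day 5 replicate 2 or 3 (edgeR adjusted p = 0.0512 to 0.0745). SpIB2 day 5 replicate 1 was the lowest library for both TOM70 copies.

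TOM71, a paralog of TOM70 with a similar role, was also lower in SpIB2 on day 5. TOM71_1 had 19.6, 20.8 and 22.7 CPM in SpIB2 and 36.7, 35.8 and 38.9 CPM in SpIB1 on day 5, without overlap (log2 fold change of -0.82, SE 0.26, edgeR adjusted p = 0.0146), and 22.7, 21.8 and 42.3 CPM in SpIB2 and 24.3, 29.0 and 22.8 CPM in SpIB1 on day 2, where it was not called (edgeR adjusted p = 0.579). TOM71_2 had 24.4, 19.5 and 14.97 CPM in SpIB2 and 21.6, 16.3 and 24.7 CPM in SpIB1 on day 5, which overlapped. Summed TOM71 was lower in SpIB2 on day 5 (log2 fold change of -0.58, SE 0.21, edgeR adjusted p = 0.0281), a call lost without SpIB2 day 5 replicate 2 or 3 or SpIB1 day 5 replicate 1 or 3 (edgeR adjusted p = 0.0510 to 0.0848).

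TOM20, the receptor that binds presequences, was called in 1 copy on 1 day. TOM20_1 had 20.3, 33.3 and 48.4 CPM in SpIB2 on day 5 and 31.8, 32.6 and 35.1 CPM on day 2. SpIB1 had 23.7, 25.6 and 27.3 CPM on day 5 and 16.8, 16.8 and 17.1 CPM on day 2. The day 2 libraries did not overlap and were close within each strain (log2 fold change of 0.97, SE 0.26, edgeR adjusted p = 0.0113), and the day 5 libraries overlapped (edgeR adjusted p = 0.177). With library totals the day 2 call was lost (edgeR adjusted p = 0.0735). TOM20_2 had 49.2 ± 12.9 CPM in SpIB2 and 44.4 ± 6.58 CPM in SpIB1 on day 5, and 34.9 ± 2.45 CPM in SpIB2 and 37.6 ± 4.32 CPM in SpIB1 on day 2 (SD, n = 3 each), with no call. Copy balance differed on day 2, with TOM20_1 at 48.8% ± 1.54 of TOM20 reads in SpIB2 and 31.1% ± 2.14 in SpIB1 (SD, n = 3 each; edgeR adjusted p = 0.0178).

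TOM40, the channel of the outer membrane, differed in copy balance, while its sum was not called. TOM40_1 had 56.3, 44.8 and 47.6 CPM in SpIB2 and 65.7, 79.0 and 89.6 CPM in SpIB1 on day 5, and 38.1, 52.5 and 53.4 CPM in SpIB2 and 56.9, 60.6 and 60.4 CPM in SpIB1 on day 2. The strains did not overlap on either day, and TOM40_1 was lower in SpIB2 on day 5 (log2 fold change of -0.66, SE 0.23, edgeR adjusted p = 0.0230), a call lost without SpIB2 day 5 replicate 2 or 3 or SpIB1 day 5 replicate 3 (edgeR adjusted p = 0.0533 to 0.0811). TOM40_2 had 133, 96.8 and 96.2 CPM in SpIB2 and 60.7, 87.8 and 93.3 CPM in SpIB1 on day 5, without overlap and without a call (edgeR adjusted p = 0.158). TOM40_1 took 31.5% ± 1.63 of TOM40 reads in SpIB2 and 49.4% ± 2.34 in SpIB1 on day 5, and 33.5% ± 3.16 in SpIB2 and 48.7% ± 2.04 in SpIB1 on day 2 (SD, n = 3 each; edgeR adjusted p of the balance 0.00579 on day 5 and 0.0282 on day 2). Summed TOM40 had 153 ± 20.8 CPM in SpIB2 and 162 ± 29.2 CPM in SpIB1 on day 5, with edgeR adjusted p = 0.773.

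TOM5, a small subunit beside the channel, had 45.0, 82.9 and 149 CPM in SpIB2 on day 5 and 54.9, 43.6 and 47.1 CPM on day 2. In SpIB1 it had 47.1, 63.1 and 59.9 CPM on day 5 and 27.0, 35.6 and 36.5 CPM on day 2. In SpIB2 the days overlapped, with replicate 3 of day 5 far above and replicate 1 within the day 2 range. It was called higher on day 5 in SpIB2 (log2 fold change of 0.93, SE 0.34, edgeR adjusted p = 0.0390), and was not called between the strains (edgeR adjusted p = 0.0896 on day 5 and 0.221 on day 2). That call was lost without any 1 of the SpIB2 day 2 libraries, SpIB2 day 5 replicate 3 or SpIB1 day 2 replicate 2 (edgeR adjusted p = 0.0531 to 0.262), and with library totals (0.61, edgeR adjusted p = 0.256).

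The small TIM chaperones of the intermembrane space gave 4 higher and 0 lower copies of 8 in SpIB2 on day 5, against 29.9% and 26.5% of all copies. On day 2, 2 were higher and 0 lower, against 19.3% and 16.0%. With library totals 1 was higher and 0 lower on day 5, and 2 and 0 on day 2. TIM9, which works in a complex with TIM10, had the largest difference of this role on day 5. TIM9_2 had 154, 311 and 632 CPM in SpIB2 on day 5 and 162, 74.5 and 117 CPM on day 2. The SpIB1 libraries had 96.9, 122 and 79.1 CPM on day 5 and 75.3, 71.5 and 86.5 CPM on day 2. All day 5 libraries of SpIB2 lay above those of SpIB1, with a wide spread among them, and TIM9_2 was higher in SpIB2 on day 5 (log2 fold change of 1.88, SE 0.45, edgeR adjusted p = 0.00282). On day 2 the strains overlapped and TIM9_2 was not called (edgeR adjusted p = 0.2998). Without SpIB2 day 5 replicate 3, the highest library, the day 5 log2 fold change was 1.23, still called. TIM9_2 was also higher on day 5 than on day 2 in SpIB2 (log2 fold change of 1.63, SE 0.44, edgeR adjusted p = 0.00966), a call lost without that same library (log2 fold change 0.98, edgeR adjusted p = 0.0505).

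TIM9_1 had 45.3, 131 and 224 CPM in SpIB2 on day 5 and 182, 72.6 and 173 CPM on day 2. In the SpIB1 libraries the values were 49.1, 64.5 and 53.7 CPM on day 5 and 49.8, 46.8 and 47.7 CPM on day 2. Replicate 1 of SpIB2 day 5 was below all SpIB1 libraries, while the day 2 groups did not overlap. The copy was higher in SpIB2 on day 5 (log2 fold change of 1.26, SE 0.46, edgeR adjusted p = 0.0308) and on day 2 (log2 fold change of 1.57, SE 0.47, edgeR adjusted p = 0.0183). The day 5 call was lost without any 1 SpIB1 day 5 library, SpIB2 day 5 replicate 2 or SpIB2 day 5 replicate 3 (edgeR adjusted p = 0.0544 to 0.210), with a log2 fold change of 0.67 in the last case, and with library totals (0.65, edgeR adjusted p = 0.306). The day 2 call was lost without any 1 SpIB1 day 2 library or SpIB2 day 2 replicate 1 (edgeR adjusted p = 0.0585 to 0.0664). Summed TIM9 had 187, 442 and 839.5 CPM in SpIB2 and 149.5, 189.8 and 135 CPM in SpIB1 on day 5 (log2 fold change of 1.63, SE 0.45, edgeR adjusted p = 0.00823). The lowest SpIB2 library, replicate 1, lay just below the highest SpIB1 library. Without SpIB2 day 5 replicate 3 the log2 fold change of the sum was 0.99 (edgeR adjusted p = 0.0504), and with library totals it was 1.06 (edgeR adjusted p = 0.0950).

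TIM10 is the partner of TIM9. TIM10_2 had 92.4, 119 and 228 CPM in SpIB2 and 70.0, 64.3 and 62.8 CPM in SpIB1 on day 5, without overlap (log2 fold change of 1.16, SE 0.38, edgeR adjusted p = 0.0172). That call was lost without any 1 SpIB1 day 5 library or SpIB2 day 5 replicate 3 (edgeR adjusted p = 0.0502 to 0.1097), and with library totals (log2 fold change 0.49, edgeR adjusted p = 0.336). TIM10_1 had 44.3, 155 and 181 CPM in SpIB2 and 110.1, 109 and 119 CPM in SpIB1 on day 5, which overlapped (edgeR adjusted p = 0.760). SpIB2 day 5 replicate 1 was again the lowest library of its group for both copies of TIM10, as it was for both copies of TIM9. Beyond leaving this library out, its part in these results was not tested.

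TIM13, which forms a complex with TIM8, was called in 1 copy. TIM13_2 had 24.0, 29.0 and 25.8 CPM in SpIB2 on day 5 and 21.1, 15.7 and 16.6 CPM on day 2. SpIB1 had 13.1, 18.3 and 14.7 CPM on day 5 and 10.9, 12.7 and 13.4 CPM on day 2. The strains did not overlap on either day, and TIM13_2 was higher in SpIB2 on day 5 (log2 fold change of 0.77, SE 0.22, edgeR adjusted p = 0.00784) and not called on day 2 (edgeR adjusted p = 0.0755). With library totals the day 5 log2 fold change was 0.03 (edgeR adjusted p = 0.946). The day 5 over day 2 change in SpIB2 was called (log2 fold change of 0.56, SE 0.22, edgeR adjusted p = 0.0485) but was lost without any 1 of SpIB1 day 2 replicates 1 to 3, SpIB1 day 5 replicate 3, SpIB2 day 2 replicates 2 and 3 or SpIB2 day 5 replicates 2 and 3 (edgeR adjusted p = 0.0501 to 0.133), and with library totals (0.14, edgeR adjusted p = 0.728). TIM13_1 had 36.9 ± 11.2 CPM in SpIB2 and 37.3 ± 2.05 CPM in SpIB1 on day 5 (SD, n = 3 each; edgeR adjusted p = 0.968).

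TIM8_1 had 17.9, 41.8 and 69.1 CPM in SpIB2 on day 5 and 62.6, 26.2 and 30.3 CPM on day 2. In SpIB1 it had 23.4, 25.9 and 17.6 CPM on day 5 and 11.3, 10.8 and 15.01 CPM on day 2. On day 2 the strains did not overlap and TIM8_1 was higher in SpIB2 (log2 fold change of 1.68, SE 0.43, edgeR adjusted p = 0.00837), while on day 5 they overlapped (edgeR adjusted p = 0.0632). TIM8_2 had 5.84, 18.6 and 41.2 CPM in SpIB2 and 17.2, 30.5 and 17.1 CPM in SpIB1 on day 5, and was not called on either day (edgeR adjusted p = 0.948 and 0.354). Replicate 1 of SpIB2 day 5 was the lowest of its group for both TIM8 copies.

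In the TIM22 complex, 2 of 6 copies were higher and 1 lower in SpIB2 on each day, counting TIM22_2 and TIM22_1 above, against 29.9% and 26.5% of all copies on day 5 and 19.3% and 16.0% on day 2. Library totals gave 2 higher and 2 lower on day 5. TIM54, a subunit of this complex, was the remaining copy called on day 5. TIM54_2 had 91.3, 85.9 and 73.3 CPM in SpIB2 on day 5 and 23.5, 27.6 and 33.1 CPM on day 2. The SpIB1 libraries had 24.0, 21.7 and 25.3 CPM on day 5 and 21.4, 28.7 and 19.4 CPM on day 2. The day 5 libraries of SpIB2 were above all others, and TIM54_2 was higher in SpIB2 on day 5 (log2 fold change of 1.82, SE 0.23, edgeR adjusted p = 2.22e-05), a call kept in every alternative fit, and was not called on day 2 (edgeR adjusted p = 0.354). TIM54_1 had 46.4, 60.0 and 64.7 CPM in SpIB2 and 58.1, 69.4 and 65.4 CPM in SpIB1 on day 5, and 38.8, 38.4 and 40.5 CPM in SpIB2 and 56.0, 50.8 and 55.8 CPM in SpIB1 on day 2, with no call between the strains (edgeR adjusted p = 0.498 and 0.0930). TIM54_1 took 40.6% ± 6.63 of TIM54 reads in SpIB2 and 73.0% ± 2.84 in SpIB1 on day 5 (SD, n = 3 each; edgeR adjusted p of the balance 4.18e-06).

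Summed TIM54 had 129, 146 and 135 CPM in SpIB2 and 84.2, 92.6 and 92.4 CPM in SpIB1 on day 5, without overlap (log2 fold change of 0.61, SE 0.17, edgeR adjusted p = 0.00890). This call was lost without SpIB1 day 5 replicate 1 (edgeR adjusted p = 0.0571) and with library totals, where the log2 fold change was -0.079 (edgeR adjusted p = 0.788). Within SpIB2, TIM54_2 was higher on day 5 than on day 2 (log2 fold change of 1.57, SE 0.23, edgeR adjusted p = 0.000215), as was the sum (log2 fold change of 0.996, SE 0.17, edgeR adjusted p = 0.000766). Both were kept in every alternative fit, the sum at 0.62 with library totals. TIM54_1 was called as well (log2 fold change of 0.54, SE 0.21, edgeR adjusted p = 0.0469), but not without any 1 library other than SpIB2 day 5 replicate 1 (edgeR adjusted p = 0.0516 to 0.119) and not with library totals (0.14, edgeR adjusted p = 0.697).

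TIM18 is another TIM22 complex subunit, and TIM18_2 had the fewest reads of the 35 copies. It had 5, 31 and 33 reads in SpIB2 on day 5 and 99, 24 and 60 on day 2, against 28, 47 and 34 in SpIB1 on day 5 and 14, 19 and 14 on day 2. In CPM it had 17.9, 4.19 and 9.23 in SpIB2 and 2.06, 2.77 and 1.98 in SpIB1 on day 2, without overlap but with a wide spread in SpIB2, and was higher there (log2 fold change of 2.19, SE 0.52, edgeR adjusted p = 0.00555). Without SpIB2 day 2 replicate 1, the highest library, the log2 fold change was 1.56, still called. On day 5 the strains overlapped (edgeR adjusted p = 0.485), and TIM18_1 was called in no comparison.

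TIM22 was higher on day 5 than on day 2 in SpIB2. TIM22_2 (log2 fold change of 0.98, SE 0.26, edgeR adjusted p = 0.0119) and TIM22_1 (log2 fold change of 0.74, SE 0.22, edgeR adjusted p = 0.0144) both passed, without overlap between the days, as did the sum (log2 fold change of 0.78, SE 0.20, edgeR adjusted p = 0.00618). The TIM22_1 call was lost without SpIB2 day 2 replicate 1 (edgeR adjusted p = 0.0517), and with library totals all 3 were lost, at log2 fold changes of 0.53 (TIM22_2), 0.26 (TIM22_1) and 0.38 (sum) and edgeR adjusted p of 0.216, 0.374 and 0.203. In SpIB1 TIM22_1, which held all TIM22 reads there, had no overlap between the days either but was not called (log2 fold change 0.71 ± 0.21 SE, edgeR adjusted p = 0.0815). The difference of the day effects of summed TIM22 was 0.073 ± 0.27 (log2, SE; edgeR adjusted p = 0.862).

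The 10 copies of the TIM23 complex gave 5 higher and 2 lower in SpIB2 on day 5, against 29.9% and 26.5% of all copies, and 2 higher and 3 lower on day 2, against 19.3% and 16.0%. TIM23_1, at 0 reads in SpIB1, is among the higher ones on each day. Library totals gave 2 higher and 4 lower on day 5, and the day 2 counts were the same. All copies also shifted to the lower side on day 5 under library totals, as their shares above show. TIM17, the partner of TIM23 in the channel, differed in 1 copy. TIM17_2 had 116, 97.4 and 73.1 CPM in SpIB2 on day 5 and 38.4, 45.0 and 38.0 CPM on day 2. In the SpIB1 libraries the values were 38.0, 31.7 and 36.5 CPM on day 5 and 28.1, 35.5 and 40.6 CPM on day 2. The 3 day 5 libraries of SpIB2 were above all 9 others. TIM17_2 was higher in SpIB2 than in SpIB1 on day 5 (log2 fold change of 1.43, SE 0.24, edgeR adjusted p = 0.000204) and higher on day 5 than on day 2 within SpIB2 (log2 fold change of 1.24, SE 0.24, edgeR adjusted p = 0.00131), and both calls were kept in every alternative fit. TIM17_1 had 62.6 ± 5.94 CPM in SpIB2 and 75.3 ± 6.54 CPM in SpIB1 on day 5, and 54.5 ± 8.55 CPM in SpIB2 and 61.2 ± 8.60 CPM in SpIB1 on day 2 (SD, n = 3 each), with no call in any comparison. TIM17_1 took 40.0% ± 6.45 of TIM17 reads in SpIB2 and 68.0% ± 3.55 in SpIB1 on day 5 (SD, n = 3 each; edgeR adjusted p of the balance 9.00e-05). Summed TIM17 was higher on day 5 than on day 2 within SpIB2 (log2 fold change of 0.67, SE 0.20, edgeR adjusted p = 0.0150), and with library totals this was 0.27 (edgeR adjusted p = 0.336).

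TIM44, which tethers the import motor to the channel, was lower in SpIB2 on day 2 in 1 copy and higher on day 5 in the other. TIM44_1 had 221, 72.5 and 93.6 CPM in SpIB2 on day 5 and 41.5, 45.7 and 50.3 CPM on day 2. SpIB1 had 133, 95.8 and 118 CPM on day 5 and 124, 108 and 129 CPM on day 2. On day 2 all SpIB2 libraries were below all SpIB1 libraries (log2 fold change of -1.39, SE 0.36, edgeR adjusted p = 0.00926), and on day 5 the strains overlapped (edgeR adjusted p = 0.724). TIM44_2 had 191, 85.1 and 92.0 CPM in SpIB2 on day 5 and 39.3, 55.3 and 49.4 CPM on day 2. In SpIB1 it had 53.8, 42.3 and 60.9 CPM on day 5 and 46.0, 50.9 and 52.2 CPM on day 2. On day 5 all SpIB2 libraries were above all SpIB1 libraries (log2 fold change of 1.23, SE 0.31, edgeR adjusted p = 0.00397), and on day 2 they overlapped (edgeR adjusted p = 0.914). With library totals the day 5 value of TIM44_2 was 0.34 and not called (edgeR adjusted p = 0.204), and without SpIB2 day 5 replicate 1 it was 0.75 and called.

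Within SpIB2 both TIM44 copies were higher on day 5 than on day 2, with no overlap between the days. The log2 fold change of TIM44_1 was 1.49 ± 0.36 SE (edgeR adjusted p = 0.00529), that of TIM44_2 1.35 ± 0.31 SE (edgeR adjusted p = 0.00385) and that of the sum 1.34 ± 0.31 SE (edgeR adjusted p = 0.00440). All 3 calls were kept in every alternative fit. SpIB2 day 5 replicate 1 was the highest library for both copies, and without it the values were 0.85 (TIM44_1), 0.87 (TIM44_2) and 0.82 (sum).

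Also within SpIB2, TIM23_2 (log2 fold change of 1.38, SE 0.34, edgeR adjusted p = 0.00533) and TIM50_2 (log2 fold change of 0.71, SE 0.22, edgeR adjusted p = 0.0183) were higher on day 5 than on day 2, and neither overlapped between the days. Summed TIM23 was higher as well (log2 fold change of 1.03, SE 0.28, edgeR adjusted p = 0.0105), whereas TIM23_1 (0.35 ± 0.27 SE, edgeR adjusted p = 0.319) was not called. The TIM50_2 call was lost without SpIB2 day 2 replicate 1 (edgeR adjusted p = 0.0759), and with library totals the calls of TIM50_2 (0.27) and summed TIM23 (0.57) were lost (edgeR adjusted p = 0.398 and 0.0639). In SpIB1 the same copies had day 5 over day 2 values of 0.11 ± 0.33 and 0.047 ± 0.22 (log2, SE) and were not called.

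The day effects of the strains differed for 4 copies, all in the TIM22 and TIM23 complexes, and this difference was tested directly as an interaction. TIM54_2 had a day effect larger by 1.54 ± 0.32 on the log2 scale (SE, edgeR adjusted p = 0.00562) in SpIB2 than in SpIB1, and it kept its call without any 1 library. With library totals no member kept this call, and the 4 differences were 0.81 (TIM54_2), 0.45 (TIM17_2), 0.66 (TIM44_1) and 0.44 (TIM44_2), with edgeR adjusted p of 0.0931 to 0.293. TIM17_2 had a difference of 1.21 ± 0.33 (log2, SE; edgeR adjusted p = 0.0191), lost without SpIB1 day 2 replicate 3 or SpIB1 day 5 replicate 2 (edgeR adjusted p = 0.0537 to 0.0567). TIM44_1 had 1.54 ± 0.50 (edgeR adjusted p = 0.0366) and TIM44_2 1.28 ± 0.43 (edgeR adjusted p = 0.0427). Each TIM44 call was lost without any 1 of 9 libraries, which were the 6 of SpIB1, SpIB2 day 2 replicate 1, SpIB2 day 5 replicate 1 and SpIB2 day 2 replicate 2 (TIM44_1) or 3 (TIM44_2), with edgeR adjusted p of 0.0512 to 0.0905 and 0.0540 to 0.108. Without SpIB2 day 5 replicate 1 the TIM44_1 difference was 0.88. For the sums, against 15.8% of all symbols called in that direction and 12.5% in the other (28.2% in either), TIM44 differed by 1.35 ± 0.44 and TIM54 by 0.81 ± 0.24 (log2, SE; edgeR adjusted p = 0.0354 and 0.0265), each lost without any 1 of the 6 SpIB1 libraries or SpIB2 day 2 replicate 1 (edgeR adjusted p = 0.0606 to 0.0957 and 0.0594 to 0.0749). Without SpIB2 day 5 replicate 1 the TIM44 sum was still called at 0.83, and with library totals the sums were 0.57 and 0.16 (edgeR adjusted p = 0.155 and 0.716).

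**Figure D4:**
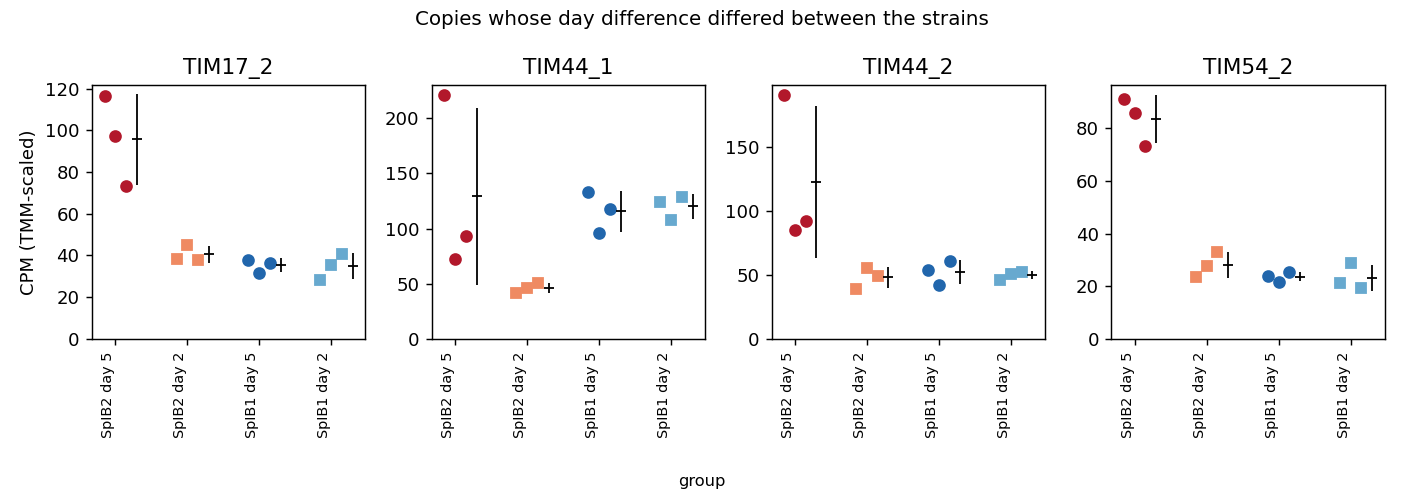
Values per library of the 4 copies whose day effect differed between the strains, in TMM-scaled CPM on an axis from 0. Coloured points are single libraries of the 4 groups, and the black bar and line beside them are the mean and SD of 3 libraries. TIM17_2 and TIM54_2 stand above all other groups in SpIB2 on day 5, and for TIM44_1 and TIM44_2 SpIB2 day 5 replicate 1 is the highest library.

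The roles took different shares of the reads in different libraries. These shares depend on transcript length, so each role is compared only with itself. TOM receptors held 13.0, 18.3 and 15.9% of all TIM and TOM reads in the SpIB2 day 5 libraries and 24.0, 24.4 and 21.0% on day 2, against 20.0, 23.5 and 22.7% in SpIB1 on day 5 and 19.8, 21.3 and 20.7% on day 2. The SpIB2 day 5 libraries were below all 9 others. A share also falls when the reads of other roles rise, and the summed level of the TOM receptors was not lower. It was 507 ± 95.5 CPM in SpIB2 on day 5 and 505 ± 56.1 CPM on day 2. In SpIB1 it was 489 ± 56.8 CPM on day 5 and 396 ± 32.6 CPM on day 2 (SD, n = 3 each). All members together had 3223 ± 396 CPM in SpIB2 on day 5 and 2191 ± 269 CPM on day 2. Small TIM chaperones held 13.4, 28.7 and 39.5% in SpIB2 on day 5 and 35.0, 20.6 and 34.3% on day 2, against 19.5, 21.6 and 17.3% in SpIB1 on day 5 and 19.9, 18.0 and 18.1% on day 2. Their share varied widely among the SpIB2 day 5 libraries, which overlapped all other groups, with replicate 1 the lowest of the 12 libraries. The TIM23 complex held 58.9, 37.8 and 30.2% in SpIB2 on day 5, with replicate 1 the highest of the 12, and 28.0, 38.1 and 30.9% on day 2, against 45.0, 37.1 and 42.5% in SpIB1 on day 5 and 45.6, 45.8 and 47.2% on day 2. The TIM22 complex held between 5.35% and 7.53% in all 12 libraries. No test was made of these shares.

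**Figure D5:**
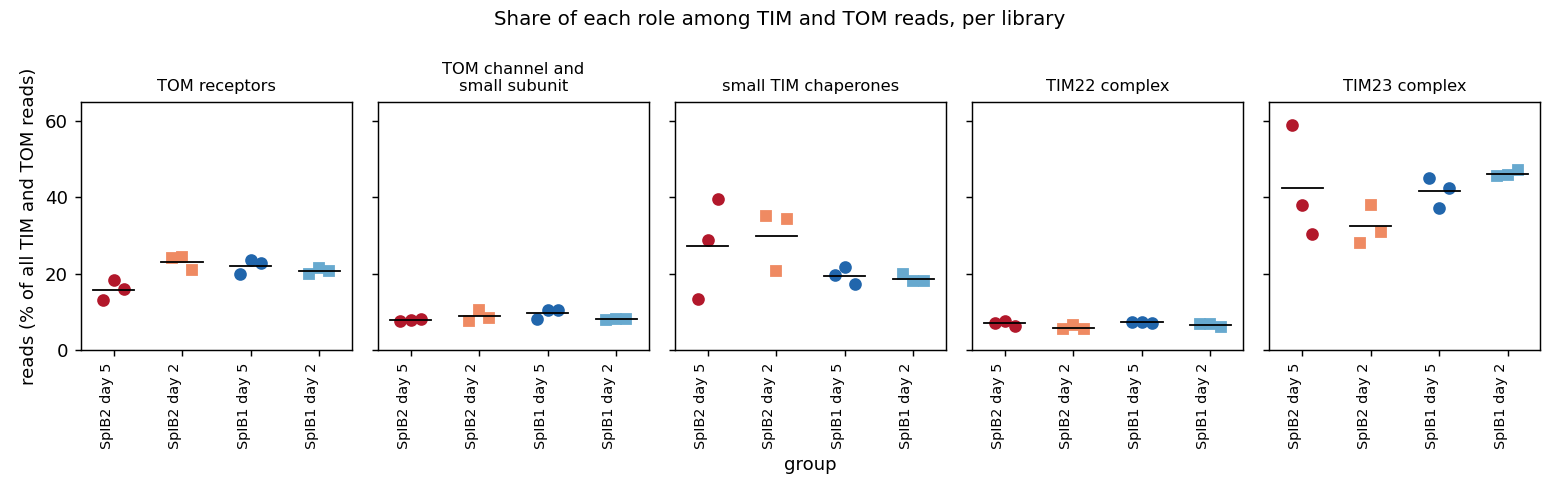
Share of each role among all TIM and TOM reads, in percent, for every library of the 4 groups. Points are libraries, black bars are group means of 3 libraries, and the 5 panels share 1 axis from 0. The TOM receptor share is lowest in SpIB2 on day 5, and the small TIM and TIM23 complex shares of that group spread from 13.4% to 39.5% and from 30.2% to 58.9%.

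The other import genes comprised 80 copies of 39 symbols in 7 lists. On day 5, 40 of these copies were higher and 11 lower in SpIB2, against 29.9% and 26.5% of all copies, and on day 2, 25 were higher and 4 lower, against 19.3% and 16.0%. Their median log2 fold changes were 0.58 on day 5 and 0.27 on day 2. The day 5 split depended on the scaling: library totals, applied to these lists after their values had been seen, gave 15 higher and 25 lower on day 5, and 18 higher and 4 lower on day 2. Without the pair of libraries that stood apart, 40 were higher and 10 lower on day 5, and 31 and 10 on day 2. Of the 8 copies of the matrix folding chaperones, 6 were higher in SpIB2 and 0 lower on each day, set against those same shares of all copies. With library totals 3 were higher and 0 lower on day 5, and 6 and 0 on day 2, and without the pair that stood apart 4 were higher and 1 lower on day 2. Among them MDJ1_2, a helper of the matrix Hsp70, had 597 ± 213 CPM in SpIB2 on day 5, against 51.7 ± 12.9 CPM in SpIB1 (SD, n = 3 each; log2 fold change of 3.53, SE 0.44, edgeR adjusted p = 2.35e-05). The presequence import motor pulls proteins in behind the TIM23 channel. It had 9 higher and 2 lower copies of 18 on day 5 and 8 higher and 1 lower on day 2, set against the same shares. With library totals it had 1 higher and 7 lower on day 5, and 5 and 1 on day 2. Its Hsp70 copy SSC1_1 had 1772 ± 1112 CPM in SpIB2 and 223 ± 63.5 CPM in SpIB1 on day 5 (SD, n = 3 each; log2 fold change of 2.99, SE 0.45, edgeR adjusted p = 9.92e-05), and was higher on day 5 than on day 2 within SpIB2 (log2 fold change of 2.49, SE 0.44, edgeR adjusted p = 0.000801). Both copies were still called on day 5 with library totals, at log2 fold changes of 2.67 (MDJ1_2) and 2.06 (SSC1_1). Of the other SSC1 copies, SSC1_2 was called lower in SpIB2 on day 5 (log2 fold change -0.77) and on day 2 (-1.81). With library totals these were -1.53 and -1.84 (edgeR adjusted p = 0.00201 and 0.00191). SSC1_3 was called higher on day 5 (1.16), a call lost with library totals (0.25, edgeR adjusted p = 0.497). Library-total counts of these lists between the strains, here and below, stand against the library-total shares of all copies given above.

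The intermembrane space disulfide relay, which folds the small TIM chaperones, had 3 higher and 0 lower copies of 4 in SpIB2 on day 5 and 2 and 0 on day 2. For this list and those below, the shares of all copies were 29.9% higher and 26.5% lower on day 5. On day 2 they were 19.3% and 16.0%. MIA40_2, a copy of the receptor of the relay, had 0 reads in all 6 SpIB1 libraries and 310.3 ± 59.8 CPM in SpIB2 on day 5 (SD, n = 3). Against the floor of 3 reads over the group, it was at least 2799-fold higher in SpIB2. OCT1_2, a copy of a matrix peptidase that trims presequence proteins, was likewise at 0 in SpIB1 and at least 123-fold higher in SpIB2 on day 5. The symbols themselves were read in SpIB1, with 10023 reads on MIA40 and 1129 on OCT1 over its 6 libraries, none of them on MIA40_2 or OCT1_2. ERV1_1, the oxidase of the relay, had 35.9 ± 12.7 CPM in SpIB2 and 14.5 ± 1.62 CPM in SpIB1 on day 5 (SD, n = 3 each; log2 fold change of 1.32, SE 0.33, edgeR adjusted p = 0.00387), a call lost with library totals (0.64, edgeR adjusted p = 0.199). In the outer membrane insertion list 5 copies were higher and 3 lower of 12 on day 5, and 2 higher and 1 lower on day 2. MIM2_2, from the complex that inserts helical outer membrane proteins, was higher in SpIB2 on day 5 (log2 fold change of 2.72, SE 0.28, edgeR adjusted p = 4.18e-06) and MDM10_1, from the complex that sorts and assembles barrel proteins, was lower (log2 fold change of -1.57, SE 0.25, edgeR adjusted p = 0.000149). The presequence processing list had 5 higher and 2 lower copies of 14 on day 5 and 3 and 1 on day 2, the export and insertion list 3 higher and 0 lower of 8 on day 5 and 1 and 1 on day 2, and the cytosolic targeting chaperones 9 higher and 4 lower of 16 on day 5 and 3 and 0 on day 2. On day 5 library totals gave 1 higher and 1 lower copy for the relay, 2 and 5 for outer membrane insertion, 3 and 5 for presequence processing, 0 and 3 for export and insertion, and 5 and 4 for the cytosolic chaperones. Between the days, 22 of the 80 copies were higher and 9 lower on day 5 in SpIB2, against 21.8% and 23.5% of all copies. In SpIB1, 0 were higher and 1 lower, against 0.863% and 2.61%. Library totals gave 9 higher and 13 lower in SpIB2, where the median log2 fold change of all copies was then -0.54, and 0 and 0 in SpIB1. Without the pair that stood apart the counts were 19 and 5 in SpIB2, and 4 and 5 in SpIB1. Shares of all copies called between the days under library totals, or in any comparison without that pair, are not given here.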

How the data were processed

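The authors deposited 1 table of raw read counts per library, with a row for each gene copy. The submitters' processing notes name HTSeq 0.11.1, STAR 2.7.3a, edgeR 3.34.0 and Trimmomatic 0.38 with no roles. How reads that match both copies were counted, with which strand setting and on which genome build, is not given in the sources used here. In 35 cells a count held text in place of digits, and the rows of these cells were left out in every library. None was a TIM or TOM row.

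Counts were fitted in edgeR 4.0.16 (R 4.3.3, limma 3.58.1) with filterByExpr, TMM factors and a robust quasi-likelihood fit. The fit had 4 group coefficients over 12 libraries, 8 residual degrees of freedom and no other covariate. Of 11312 copies, 10659 were tested, and Benjamini-Hochberg adjustment ran over all of them in each of 5 contrasts, with a threshold of 0.05. The same fit was made on counts summed over the copies of each symbol, 6171 of them. In both fits the SE was derived, as the absolute log2 fold change divided by the square root of the F statistic. Copy balance was tested in the copy fit by diffSpliceDGE, with copies in place of exons. The tests were checked on simulated counts first. Alternatives were other scaling, no filter on low counts, DESeq2 1.42.0, a replicate block, only the 6 libraries compared, each library left out in turn, a pair of divergent libraries left out, and the missing string of digits put back in the unreadable cells. Counts per role and for the other import lists under other scaling, and without the divergent pair, were added after seeing the data.

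The members and lists were chosen with earlier results of these data known, so their counts are descriptions and no test was run over a list. All TIM and TOM rows could be named, with every library's value for those called. Genes of the other import lists were named only when called, at most 4 per list and contrast. Those named were not always the largest differences of their list. On day 5 between the strains, STI1_2 (log2 fold change of 3.43), SSB1_1 (-2.82), ICP55_2 (2.52) and SAM35_2 (2.46) were called as well and not named above. No gene lengths were used, so levels were not compared between genes. With 3 reads as the floor, intervals and limits cover counting error only.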

Additional observations from a re-analysis of the deposited data

Results flagged for a closer look

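A total of 6 results stood out because the day 5 over day 2 change differed between the strains in a direct test, the interaction term of the edgeR fit. The difference, SpIB2 minus SpIB1 on the log2 scale, was 1.54 for TIM54_2, 1.21 for TIM17_2, 1.54 for TIM44_1 and 1.28 for TIM44_2. Summed over copies it was 1.35 for TIM44 and 0.81 for TIM54. Of all copies tested, 26.4% had such a difference in either direction, and of all symbols 28.2%, against 4 of the 35 member copies and 2 of the 18 member symbols. With library totals in place of TMM all 6 calls were lost. When 1 library at a time was left out, 5 of the 6 calls were lost in at least 1 fit, and TIM54_2 kept its call in every one.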

How the results depend on the processing

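Of 83 called values of the members, tried under 1637 alternatives in all, 1364 kept call and direction, 272 kept the direction only and 1 changed sign (summed TIM54 on day 5, -0.079 with library totals). DESeq2 kept all 66 values it could give, library totals lost 33 of 83, and putting the missing digits back kept 83 of 83. With library totals the count of called symbols was 2 on day 2 and 4 for the day comparison in SpIB2. DESeq2 called 3 copies and 2 symbols for the day comparison in SpIB1, 10 copies and 4 symbols for the difference of day effects, and 8 symbols on day 5 and 5 on day 2 between the strains. A fit on only the 6 libraries compared called 7 copies and 2 symbols between the days in SpIB2, 7 copies and 5 symbols in SpIB1, and 3 symbols on day 5 and 4 on day 2 between the strains. Without the pair of libraries that stood apart, 6 copies and 3 symbols were called between the days in SpIB1, and 9 symbols on day 5 and 4 on day 2 between the strains. The cause of these changes was not tested. Shares of all copies and symbols called are not set beside these counts or those below, so they describe the members only.

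With 1 library left out, called copies ranged from 14 to 20 between the strains on day 5, 9 to 19 on day 2, 9 to 14 between the days in SpIB2, 0 to 2 in SpIB1, and 1 to 6 for the difference of day effects. Called symbols ranged from 2 to 9, 0 to 5, 5 to 7, 0 to 3 and 0 to 3 in the same order, and symbols with a called copy balance from 7 to 9 on day 5 and 4 to 10 on day 2.

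With the replicate number as a block, 16 copies were called on day 5, 11 on day 2, 11 between the days in SpIB2, 1 in SpIB1 and 2 for the difference of day effects. Called symbols under the block were 4, 1, 6, 0 and 0 in the same order, and called balances were 8 on day 5 and 7 on day 2. Deviations from the group means of libraries with the same number had correlations of -0.55 to 0.46, and in no pair of groups were all 3 above 0.1. Between SpIB1 day 5 and SpIB1 day 2 they were 0.46, 0.017 and 0.37 for replicates 1, 2 and 3. With 3 libraries per group, these values cannot show whether libraries of the same number belong together. Depth limits the least read copies most: 3 reads are 0.306 to 1.03 CPM, and TIM18_2 had 408 reads in all 12 libraries.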
